A study of Mus musculus with 12 samples.

Results

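The FGF-ERK receptor and feedback genes examined here were 10 genes: the receptor genes Fgfr1 and Fgfr2, the phosphatase genes Dusp4 and Dusp6, the inhibitor genes Spry2, Spry4 and Spred1, and the transcription factor genes Etv4, Etv5 and Egr1. Regions of accessible chromatin were assigned to them when they overlapped the gene body or the 50 kb to either side (GRCm38, GENCODE M21). This gave 197 of the 170548 regions in the authors' merged ATAC-seq list. The count depended on 1 gene record. Fgfr2 is annotated over 2.96 Mb because of 1 transcript that starts far upstream of all others, and with that transcript included the Fgfr2 window alone held 273 regions and 30 other protein-coding genes, and the total rose to 449. The values below use the Fgfr2 body without that transcript, chr7:130162451-130266263.

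ATAC-seq reads accumulate where a transposase can cut open chromatin, and the study used it to follow accessibility when OCT4 or SOX2 was removed from mouse ES cells. The series held 12 libraries in 6 groups of 2 replicates, and the list was merged from peaks of both cell lines. The paper also drew on published ZHBTc4 data from cells in serum with LIF. Whether peaks of those cells entered the list is not known, so a region need not have been called under the MEK inhibitor. ZHBTc4 cells, in which the only source of OCT4 is a transgene that doxycycline (dox) shuts off, were left untreated (OCT4 ON) or given 1 µg/ml dox for 24 hr (OCT4 OFF). 2TS22C cells, which carry the same kind of dox-repressed transgene for SOX2, were left untreated (SOX2 ON) or given 1 µg/ml dox (SOX2 OFF), each for 26 hr and for 40 hr. All groups grew in serum with LIF, the GSK3 inhibitor CHIR99021 at 3 µM and the MEK inhibitor PD184352 at 0.8 µM, so untreated cells received the MEK inhibitor as well. Each entry of the list is a pair of positions, with neither a height nor a sample of origin. Dox-treated and untreated cells therefore could not be compared, the depth of each library is unknown, and the labelled cell type could not be checked against marker genes.

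FGF ligands bind receptor tyrosine kinases, which act through RAS, RAF and MEK to activate the kinase ERK. ERK then switches on genes that dampen its own activity, including the dual-specificity phosphatases and the Sprouty and Spred proteins, together with ETS factors of the PEA3 group and immediate early factors such as EGR1. In mouse ES cells FGF4 drives this pathway towards exit from the naive state, and a MEK inhibitor is one component of the 2i medium that holds cells there.

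All 10 genes had a region within 1 kb of an annotated TSS, a state shared by 74.7% of the 21938 protein-coding genes. In all 10 a region covered at least 1 TSS position of the gene, as in 68.9% of protein-coding genes. The windows were more densely filled than that of the median gene in 9 of 10 cases, with a median of 14.8 regions per 100 kb over the members and 10.2 over all protein-coding genes. The count of 9 included Fgfr2 at 10.3 regions per 100 kb. The other genes were taken with their records as annotated, and with the annotated Fgfr2 record that window had 8.92 regions per 100 kb, below the median gene, which left 8 of 10. Spry4 and Spry2 had the densest windows. Of the 197 regions, 171 were distal, with a center more than 1 kb from any annotated TSS (86.8%, 95% Wilson interval 81.4% to 90.8%, against 82.7% of all regions). The interval covers counting error only, and regions are not replicates of a condition.

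**Figure D1:**
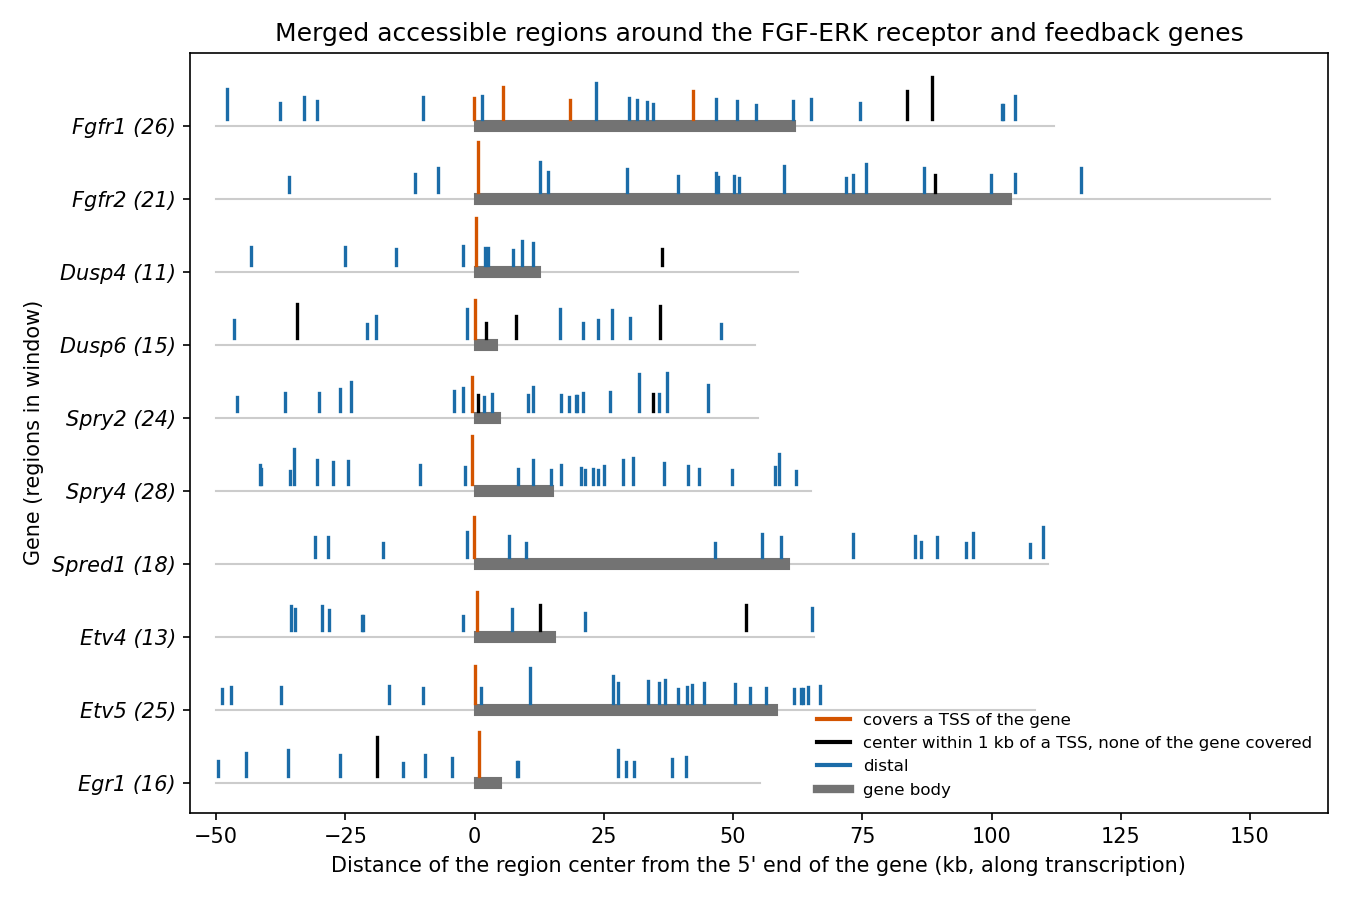
Positions of the 197 merged regions at the 10 genes, with distance of each region center from the 5′ end in kb along transcription on the x axis, 1 row per gene and the number of regions in brackets. Ticks grow with region width, orange ticks cover a TSS of the gene, black ticks lie within 1 kb of a TSS without covering one of the gene, blue ticks are distal, and grey bars are gene bodies. Etv5 carried most of its regions inside the gene, whereas Spry4 had 15 region centers downstream of the gene and 10 upstream.

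RefSeq promoter windows of the members are shown because their CpG content separates the window at the RefSeq start of Fgfr2 from the others. Each runs from 250 bases before to 50 bases after a RefSeq start (GRCm38.p6), is written 5′ to 3′ on the strand of the gene, and has its CpG dinucleotides in capitals. The table of promoters held entries for Fgfr2, Dusp6, Spry2, Spred1 and Etv5. Etv5 had 2 entries, of which the more upstream is shown.
Fgfr2 chr7:130266759-130267058 minus strand: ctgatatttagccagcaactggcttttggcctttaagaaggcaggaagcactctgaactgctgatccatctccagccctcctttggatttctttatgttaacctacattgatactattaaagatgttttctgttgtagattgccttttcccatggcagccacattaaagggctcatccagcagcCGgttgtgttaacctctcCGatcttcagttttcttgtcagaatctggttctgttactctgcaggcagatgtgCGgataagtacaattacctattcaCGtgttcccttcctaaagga
Dusp6 chr10:99262981-99263280 plus strand: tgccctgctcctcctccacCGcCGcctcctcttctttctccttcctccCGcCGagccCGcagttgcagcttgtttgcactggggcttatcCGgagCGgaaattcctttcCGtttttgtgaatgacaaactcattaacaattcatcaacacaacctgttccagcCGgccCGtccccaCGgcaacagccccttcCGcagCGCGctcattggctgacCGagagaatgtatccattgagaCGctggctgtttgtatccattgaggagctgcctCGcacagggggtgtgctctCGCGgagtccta
Spry2 chr14:105896770-105897069 minus strand: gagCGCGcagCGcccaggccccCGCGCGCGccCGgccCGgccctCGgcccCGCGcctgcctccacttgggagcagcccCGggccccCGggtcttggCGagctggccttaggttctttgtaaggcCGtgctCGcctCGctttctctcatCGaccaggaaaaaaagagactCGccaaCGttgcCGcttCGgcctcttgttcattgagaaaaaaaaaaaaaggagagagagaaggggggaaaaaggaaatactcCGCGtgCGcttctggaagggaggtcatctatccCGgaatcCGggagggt
Spred1 chr2:117120821-117121120 plus strand: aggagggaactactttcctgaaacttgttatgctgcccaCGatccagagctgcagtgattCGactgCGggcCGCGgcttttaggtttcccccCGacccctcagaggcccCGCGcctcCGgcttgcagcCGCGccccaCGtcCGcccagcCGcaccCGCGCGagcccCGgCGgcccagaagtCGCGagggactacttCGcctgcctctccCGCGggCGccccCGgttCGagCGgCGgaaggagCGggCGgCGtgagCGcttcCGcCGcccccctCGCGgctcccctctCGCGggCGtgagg
Etv5 chr16:22439521-22439820 minus strand: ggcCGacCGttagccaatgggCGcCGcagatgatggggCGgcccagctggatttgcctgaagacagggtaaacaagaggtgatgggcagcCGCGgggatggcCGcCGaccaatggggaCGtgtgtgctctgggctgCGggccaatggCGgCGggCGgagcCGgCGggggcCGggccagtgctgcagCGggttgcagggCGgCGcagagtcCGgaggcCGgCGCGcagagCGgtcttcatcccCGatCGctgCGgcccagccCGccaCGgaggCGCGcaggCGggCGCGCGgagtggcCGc

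The Fgfr2 window had 4 CpG dinucleotides, and none of its 300 bases lay in an accessible region. The region at the Fgfr2 5′ end stopped at position 130266719, short of the RefSeq start at 130266808. The other windows shown lay wholly inside a region. They held 19 CpG dinucleotides at Dusp6, 28 at Spry2, 37 at Etv5 and 40 at Spred1. CpG observed/expected, the number of CpG dinucleotides relative to that given by the C and G content, was 0.282 at Fgfr2 and 0.802 at Dusp6, 0.951 at Spry2, 0.938 at Etv5 and 1.03 at Spred1. The median over 32851 RefSeq promoters was 0.384, so the Fgfr2 window was below it and the others above. The low Fgfr2 value belongs to this RefSeq start only. The GENCODE 5′ end of Fgfr2, at 130266263, lay inside the accessible region, which had a CpG observed/expected of 0.800. The more downstream Etv5 window, not shown, had 169 of its 300 bases inside a region.

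Regions away from promoters are shown next for the sequence elements they carry. They are the widest distal regions of Fgfr1, Spry2 and Etv5 and all distal regions of the members with an octamer or an ETS match whose printed bases touch no annotated exon. Each line is the central 200 bases of a region, or the whole region where it is narrower, on the plus strand of GRCm38. Capitals mark matches: GGGNGTGG (KLF) at Fgfr1, TCAAGGTCA (ESRRB) at Spry2, ATGCAAAT (octamer) and then CCGGAAGT (ETS) at Spred1, ATGCAAAT at Etv4, and ACAATGG (SOX) and then ATGCAAAT at Etv5.
Fgfr1 chr8:25537071-25537270 plus strand: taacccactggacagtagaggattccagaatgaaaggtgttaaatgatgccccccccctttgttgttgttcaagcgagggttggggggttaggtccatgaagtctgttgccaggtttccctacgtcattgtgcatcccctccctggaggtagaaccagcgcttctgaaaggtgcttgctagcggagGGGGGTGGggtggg
Spry2 chr14:105859542-105859741 plus strand: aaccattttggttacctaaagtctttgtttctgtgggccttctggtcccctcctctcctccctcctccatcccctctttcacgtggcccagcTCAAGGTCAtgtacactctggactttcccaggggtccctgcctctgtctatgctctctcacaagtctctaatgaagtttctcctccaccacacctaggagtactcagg
Spred1 chr2:117194473-117194672 plus strand: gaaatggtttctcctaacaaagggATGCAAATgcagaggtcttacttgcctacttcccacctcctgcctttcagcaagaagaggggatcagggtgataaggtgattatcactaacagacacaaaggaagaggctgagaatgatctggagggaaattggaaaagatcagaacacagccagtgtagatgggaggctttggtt
Spred1 chr2:117207658-117207857 plus strand: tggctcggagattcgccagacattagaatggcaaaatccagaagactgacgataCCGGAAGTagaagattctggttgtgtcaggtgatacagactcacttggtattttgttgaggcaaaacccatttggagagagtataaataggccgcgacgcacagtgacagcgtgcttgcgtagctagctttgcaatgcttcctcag
Etv4 chr11:101787610-101787751 plus strand: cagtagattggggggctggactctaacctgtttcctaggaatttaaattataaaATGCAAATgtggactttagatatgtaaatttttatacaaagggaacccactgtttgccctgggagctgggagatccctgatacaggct
Etv5 chr16:22428943-22429142 plus strand: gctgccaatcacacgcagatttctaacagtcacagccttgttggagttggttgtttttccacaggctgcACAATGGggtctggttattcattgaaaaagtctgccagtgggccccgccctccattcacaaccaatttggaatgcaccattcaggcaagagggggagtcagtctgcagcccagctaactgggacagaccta
Etv5 chr16:22486808-22487007 plus strand: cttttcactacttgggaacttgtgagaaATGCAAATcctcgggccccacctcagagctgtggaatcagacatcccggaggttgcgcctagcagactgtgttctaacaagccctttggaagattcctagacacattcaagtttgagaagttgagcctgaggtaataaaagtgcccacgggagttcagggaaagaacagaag

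Fgfr1 encodes the main FGF receptor of ES cells. Its window (gene chr8:25513654-25575718, plus strand) held 26 regions, 16.0 per 100 kb, which is the 79.2 percentile of protein-coding genes. The regions covered 9.24% of the window. Accessible chromatin therefore took up more of the Fgfr1 window than of that of the median gene, 5.53%.

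Several starts of Fgfr1 were accessible. The gene has 18 annotated TSS positions, and 4 separate regions covered 10 of them. The region over the 5′ end was 550 bp wide (chr8:25513188-25513737), with a CpG observed/expected of 0.274 and an octamer match. A wider region of 1112 bp, centered 5.55 kb inside the gene, had a GC content of 72.7% and a CpG observed/expected of 0.873. The CpG-rich start of Fgfr1 thus lay inside the annotated gene and not at its 5′ end.

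The widest distal region of Fgfr1 spanned 1340 bp (chr8:25536501-25537840) in an intron 23.52 kb from the 5′ end, and its central bases are printed above. The widest region of the window, 1670 bp, was not at Fgfr1 but near the start of Nsd3, a histone methyltransferase gene. Regions near Letm2 and Nsd3 made up the part of the window whose nearest protein-coding TSS was another gene, and 19 of the 26 regions were nearest to Fgfr1. The longest stretch without a region ran for 19.9 kb upstream of the gene.

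Fgfr2, whose product is the other FGF receptor of the group and is best known for its roles in epithelia and in the extraembryonic lineages, had a less dense window. It held 21 regions, 10.3 per 100 kb, at the 50.4 percentile (8.92 per 100 kb with the annotated record), and 5.59% of the window was covered. No other protein-coding gene starts in the window, and all 21 regions were nearest to Fgfr2. Most were inside the gene: 16 overlapped its body, and 13 of the 19 distal regions lay in introns.

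The region over the Fgfr2 5′ end was the widest of all 197. It spanned 2118 bp (chr7:130264602-130266719) with a GC content of 61.3% and a CpG observed/expected of 0.800. Among the widest TSS regions of 15113 protein-coding genes it stood at the 97.3 percentile. It covered 4 of the 13 annotated TSS positions. The widest distal region, 1030 bp (chr7:130253031-130254060), lay in an intron 12.72 kb inside the gene, and the widest stretch without a region, 24.0 kb, lay upstream. The farther of the regions downstream of the gene (chr7:130148690-130149371) had both an ESRRB and an AP-1 match.

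Dusp4 and Dusp6 encode phosphatases that inactivate MAP kinases, DUSP4 in the nucleus and DUSP6 in the cytoplasm with a preference for ERK. Both genes are short, and both had their widest region over the TSS. Their surroundings differed: Dusp4 had 11 regions (9.77 per 100 kb, 47.5 percentile) and Dusp6 had 15 (14.4 per 100 kb, 71.7 percentile). The covered share was 5.14% at Dusp4 and 9.54% at Dusp6.

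At Dusp4 (chr8:34807297-34819894, plus strand) the regions were close to the gene. A 1986 bp region (chr8:34806543-34808528, 95.8 percentile of TSS regions) covered the only TSS. Regions of 296 bp and 298 bp followed in an intron 1.96 kb and 2.50 kb from the 5′ end. They were narrow but CpG-rich for distal regions, with a CpG observed/expected of 0.922 and 0.625 against a median of 0.217 over all distal regions. The widest distal region, 684 bp (chr8:34816107-34816790), was centered over an exon 9.15 kb from the 5′ end and had a KLF match. After the last region in the gene the next came 24.6 kb further on, in an intron of Tnks.

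At Dusp6 (chr10:99263231-99267489, plus strand) a 1449 bp region (chr10:99262651-99264099, 77.7 percentile) covered the 5′ end. It had a neighbour of 1007 bp (chr10:99261243-99262249) centered 1.49 kb upstream, the widest distal region of the gene, with a CpG observed/expected of 0.833. These regions were set off by the longest stretch without a region in the window, 16.8 kb on the upstream side. Downstream of the gene 8 regions were centered within 50 kb. Of these, a 1129 bp region 35.8 kb from the 5′ end lay over an exon of the long non-coding gene B530045E10Rik. A SOX match was present in an intronic region of 220 bp, 2.27 kb from the 5′ end, and in a 504 bp region 30.11 kb away.

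The Sprouty and Spred genes included the densest and one of the less dense windows. SPRY2 and SPRY4 are inhibitors of receptor tyrosine kinase signalling upstream of ERK, and SPRED1 is a membrane protein that recruits the RAS GTPase-activating protein neurofibromin. Spry2 held 24 regions (22.9 per 100 kb, 97.7 percentile) and Spry4 held 28 (24.3 per 100 kb, 98.8 percentile). Spred1 held 18 (11.2 per 100 kb, 55.2 percentile). No other protein-coding gene starts in any of these windows. Among the 3911 protein-coding genes of which that is true, with a median of 6.15 regions per 100 kb, Spry2 stood at the 99.0 percentile, Spry4 at 99.3 and Spred1 at 79.3.

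**Figure D2:**
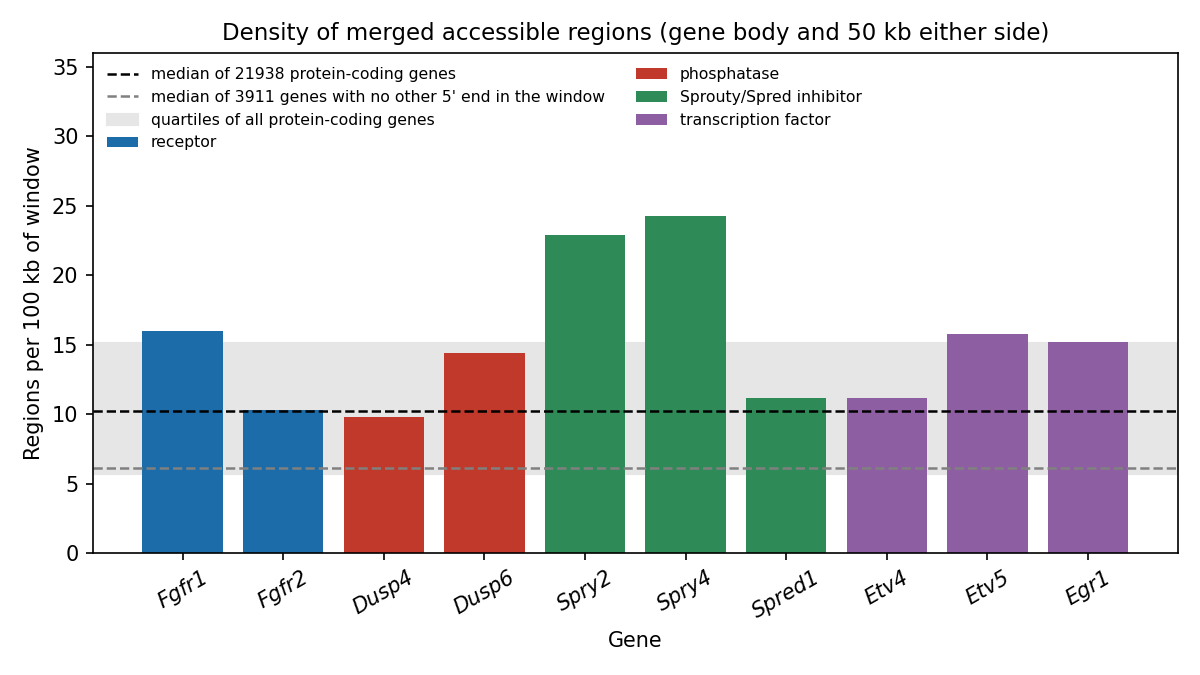
Regions per 100 kb of window for each of the 10 genes (bars, colored by role), with the median of all protein-coding genes (black dashed line, 10.2), their quartiles (grey band, 5.70 to 15.1) and the median of genes with no other protein-coding 5′ end in the window (grey dashed line, 6.15). The bars of 5 genes rise above the band, Spry4 at 24.3, Spry2 at 22.9, Fgfr1 at 16.0, Etv5 at 15.8 and Egr1 at 15.2, and the Dusp4 bar at 9.77 lies just below the median of all genes.

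Spry2 (chr14:105891947-105896819, minus strand) is a short gene, and 13 of its 24 region centers lay downstream of it, 3 inside and 8 upstream. The TSS was covered by a region of 1261 bp (chr14:105896765-105898025, 62.2 percentile). It was not the widest. A 1500 bp region in an intron of the non-coding gene Gm48970 (chr14:105858892-105860391), 37.18 kb downstream of the Spry2 5′ end, was the widest distal region at any of the members, and the ESRRB match printed above lies in it. Another wide region, 1416 bp (chr14:105864396-105865811), followed 31.72 kb downstream, and 6 region centers lay within 10 kb between 16.72 and 26.28 kb downstream, none over 437 bp wide. Of these 6, a 177 bp region had a CArG box match, the element bound by SRF.

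Spry4 (chr18:38586247-38601415, minus strand) had regions on both sides. A 2040 bp region (chr18:38600843-38602882, 96.5 percentile) covered the TSS, and it was the only promoter-proximal region of the 28. Downstream, 6 region centers lay within 10 kb, 21.43 to 30.7 kb from the 5′ end. Upstream, all 10 centers were in introns or exons of the long non-coding gene AC133601.1, among them the widest distal region, 1304 bp (chr18:38635688-38636991), 34.92 kb upstream, with an ESRRB match. AP-1 matches were found in 4 Spry4 regions, more than in any other window, but Spry4 also had the most regions. All 4 were mostly repeat sequence, with 69.24% to 82.46% of their bases soft-masked in the genome. The median over distal member regions was 10%.

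Spred1 (chr2:117121374-117182279, plus strand) had most of its regions outside the gene. The 5′ region of 1586 bp (chr2:117120403-117121988, 85.3 percentile) had the highest CpG observed/expected of all 197, 0.997. The gene then had the longest stretch without a region of any member window, 36.6 kb, between 9.85 and 46.59 kb from the 5′ end. Another 8 regions lay beyond the 3′ end, and all 8 were nearer to the TSS of Fam98b than to that of Spred1. They included a 678 bp region with an octamer match (chr2:117194234-117194911) and a 217 bp region with the only ETS match in the center of a member region (chr2:117207649-117207865), both printed above. The widest distal region, 1016 bp (chr2:117230915-117231930), was 110.05 kb from the 5′ end and had a CTCF match.

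Etv4 and Etv5 encode ETS factors of the PEA3 group, which are used widely as readouts of FGF signalling, and Egr1 encodes a zinc finger factor made within minutes of ERK activation. The number of regions was 13 at Etv4, 25 at Etv5 and 16 at Egr1. Per 100 kb these were 11.2, 15.8 and 15.2, at the 55.6, 78.2 and 75.6 percentiles. The related genes Etv4 and Etv5 differed most in where the regions were: 3 of 13 centers lay inside Etv4 and 14 of 25 inside Etv5, a gene of 58.41 kb against 15.63 kb.

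At Etv4 (chr11:101769742-101785371, minus strand) a 1496 bp region (chr11:101784253-101785748, 80.7 percentile) covered 9 of 10 annotated TSS positions. A narrow region of 142 bp (chr11:101787610-101787751), centered 2.31 kb upstream, had an octamer match and no CpG. Farther out, the widest distal region was 722 bp (chr11:101814561-101815282), 29.55 kb upstream, with a CTCF match, as had a 499 bp region at 28.08 kb. The 3′ side had a stretch of 30.6 kb without a region. Dhx8, an RNA helicase gene, starts in the window, and 11 of the 13 regions were nearer to Etv4.

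At Etv5 (chr16:22381309-22439719, minus strand) the 5′ end was covered by a 1431 bp region (chr16:22439023-22440453, 76.4 percentile), the only promoter-proximal region of the 25 by the GENCODE starts. A 235 bp region (chr16:22438450-22438684), counted as distal at 1003 bp from a GENCODE TSS, overlapped the more downstream RefSeq promoter window. Of the 24 distal regions 15 were in introns, 12 of them in introns of Etv5 and 3 in introns of Dgkg, and 6 regions had centers within 10 kb, 35.67 to 44.41 kb inside the gene. Regions at Etv5 were narrow, with a median width of 296 bp, the lowest of the members. The widest distal region, 1331 bp (chr16:22428377-22429707), lay 10.68 kb inside the gene and had the SOX match printed above. SOX matches occurred in 4 Etv5 regions, octamer matches in 2 and an ESRRB match in 1.

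At Egr1 (chr18:34859823-34864984, plus strand) a 1831 bp region (chr18:34859847-34861677, 93.2 percentile) covered 1 of 2 annotated TSS positions, with a CArG box match in its central 200 bases. The region began just past the 5′ end, so the TSS it covered was the internal one. Its center was 0.94 kb inside the annotated gene and 445 bp upstream of that internal TSS. The CArG box match thus lay inside the gene record but upstream of the TSS that the region covered. This region was the only one of the 16 to overlap the gene. Only 8 of the 16 were nearest to Egr1: the others were nearer to Reep2, Kdm3b or Etf1. Upstream, the widest distal region, 850 bp (chr18:34823291-34824140), was in an intron of Kdm3b, 36.11 kb from the 5′ end. Downstream, a stretch of 18.9 kb without a region ended at an 842 bp region with a CpG observed/expected of 0.794.

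Regions over the starts of the members were wider than those of most genes. In 8 of the 10 windows the widest region covered a TSS of the member, with Fgfr1 and Spry2 as the exceptions. This count was not made over all protein-coding genes, so it cannot be called particular to the members. In the whole list promoter-proximal regions were wider than distal ones, with medians of 757 bp and 344 bp. The widest region over a TSS of each gene had a median of 1540 bp and ranged from 1112 bp at Fgfr1 to 2118 bp at Fgfr2. Over the 15113 protein-coding genes with such a region the median was 1140 bp. In 9 of 10 members the region was wider than that, and Fgfr1 was the exception at the 46.7 percentile. Distal regions of the members had a median width of 384 bp, with quartiles of 217 bp and 616 bp, and distal regions in the whole list had a median of 344 bp with quartiles of 213 bp and 559 bp, so these largely overlapped.

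**Figure D3:**
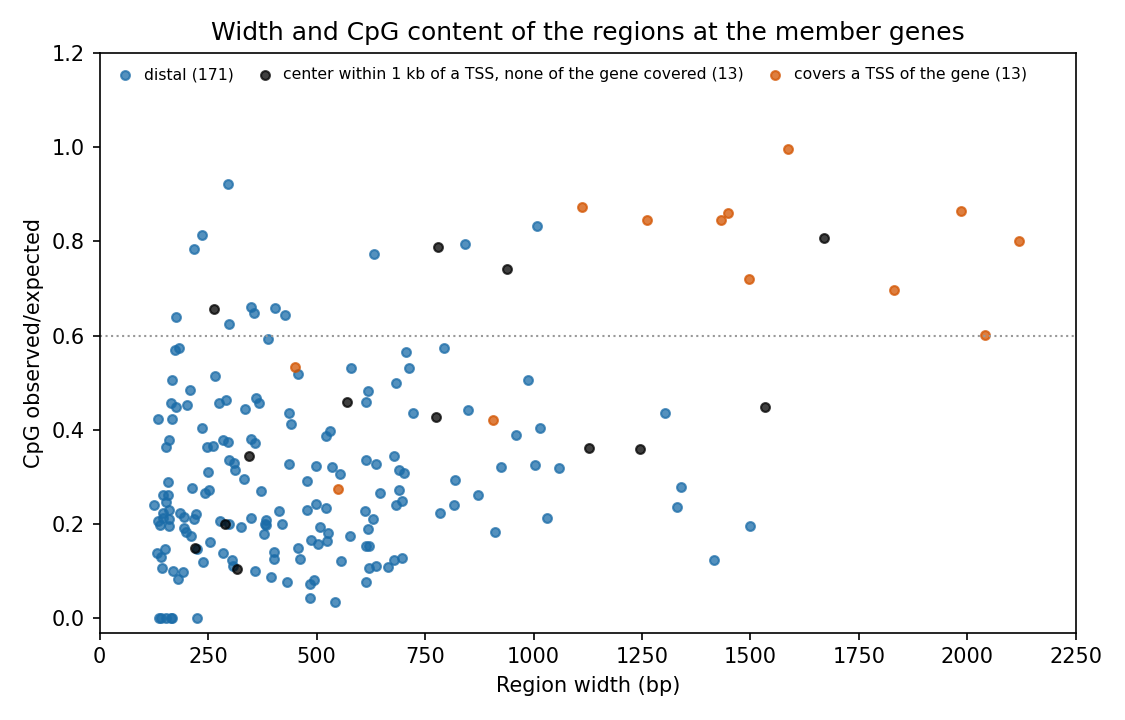
Width (bp, x axis) and CpG observed/expected (y axis) of the 197 regions, with distal regions in blue, regions within 1 kb of a TSS that cover no TSS of the gene in black, and regions over a TSS of the gene in orange; the dotted line marks 0.6. Most orange points sit above 0.6 at widths from 1112 bp, and the 3 others belong to Fgfr1.

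CpG-rich sequence was found in some distal regions too. Of the 171 distal regions 12 had a CpG observed/expected of at least 0.6 (7.02%, against 4.14% of all distal regions). They included those named at Dusp4 and Dusp6, which lay 1.49 to 2.50 kb from the nearest TSS, just past the 1 kb limit. Further ones lay 1.04 kb away at Fgfr1, 2.21 kb at Dusp4, 2.18 kb at Spry2 and 1.0 kb at Etv5. The rest, among them the one named at Egr1 (26.31 kb), were at least 11.85 kb from any TSS. Distal regions lay in introns in 69 cases, between genes in 85 and over exons in 17, and 42 of the intronic ones were in an intron of the member itself. Of all 197 regions, 168 were nearest to the member among protein-coding genes. None was wider than 5 kb, which 16 regions of the whole list were.

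Short sequence elements were looked for on either strand, in the 200 bases at the center of each region. In all, 39.1% of the member regions and 36.7% of all regions held at least 1 of the 14 elements. No member region had a match to the OCT4::SOX2 composite element with at most 2 mismatches, and 0 of 197 allows a share of up to 1.52% by the limit of 3 counts (the 95% Wilson interval reaches 1.91%). The element was present in 0.571% of all regions, which is below both limits, so a lower share at the members was not detectable with this number of regions. The search was also strict. It found 973 regions in the whole list, fewer than the OCT4-dependent loci alone at which the paper's motif search placed the element. The 0 is therefore not evidence that the members lack it, and 5 member regions matched with at most 3 mismatches (3.40% of all regions). The octamer ATGCAAAT was present in 5 regions (2.54%, against 2.01% of all regions) at Fgfr1, Spred1, Etv4 and Etv5, and the SOX element ACAATGG in 14 (7.11%, 95% Wilson interval 4.28% to 11.6%, against 4.45%).

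Elements of factors that the pathway acts on were rare at the members and in the whole list, except for AP-1. The ETS element CCGGAAGT was found in 1 region (0.508%, against 0.659%), and the CArG box in 2 (1.02%, against 0.927%), at Egr1 and Spry2. The CRE element TGACGTCA was also found in 2 (1.02%, against 0.314%), at Fgfr1 and Spry2. The AP-1 element TGANTCA was in 11 regions (5.58%, against 6.88%), and the EGR element GCGTGGGCG in 0 (a share of up to 1.52% by the same limit of 3 counts, against 0.124%). The intervals of these shares all contained the share of all regions.

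Elements of factors tied to the culture conditions and to naive ES cells were also present. The ESRRB element TCAAGGTCA was in 4 regions (2.03%, against 1.20%), 1 each at Fgfr2, Spry2, Spry4 and Etv5, all distal. The STAT element TTCCNGGAA was in 2 (1.02%, against 0.880%), at Fgfr1 and Dusp4, and the TCF/LEF element ATCAAAG in 5 (2.54%, against 3.52%). KLF matches (GGGNGTGG) were the most frequent, in 22 regions (11.2%, against 9.90%) of 9 genes. The AP-2 element GCCNNNGGC was in 12 (6.09%, against 9.35%) and CTCF matches were in 7 (3.55%, against 2.34%), all distal. GCCNNNGGC was also found in the RefSeq promoter windows of Spry2, Spred1 and Etv5, and in 16.6% of all such windows, while the other elements searched there had no match in the 6 member windows and were present in 0.423% (ESRRB) to 17.6% (KLF) of all windows. Whether a share at the members was above or below that of all regions changed with the searched width for the octamer, AP-1, EGR, TCF/LEF and AP-2 elements. A match is a description of the letters and not a binding site, and some elements can overlap.

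Other genes of the pathway gave the surroundings in which the members sit. Of 53 genes listed, 52 were found in the annotation as protein-coding, and all 52 had a region within 1 kb of a TSS (74.7% over all protein-coding genes). Their median was 14.1 regions per 100 kb, and 40 of the 52 were above the median of all genes. By role, the median was 15.1 for 5 ligand genes, 17.7 for the 2 other receptor genes, 16.6 for 8 adaptor genes and 13.7 for 11 genes from RAS to ERK. It was 13.4 for 11 other inhibitor genes and 15.5 for 15 other transcription factor genes.

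Within the list Gab1, an adaptor gene, had the most regions, 43, followed by the adaptor gene Frs2 and the inhibitor gene Spred2 with 39 each. The fewest were at Egr2 with 5, Fgf5 with 7, and Egr3 and Elk1 with 9 each. Among the 52, only Ier2 (32.5 per 100 kb) and Junb (24.9 per 100 kb), named after their values were seen, had a denser window than Spry4. The values of the members lay within the range of the other pathway genes, 4.69 to 32.5 per 100 kb.

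**Figure D4:**
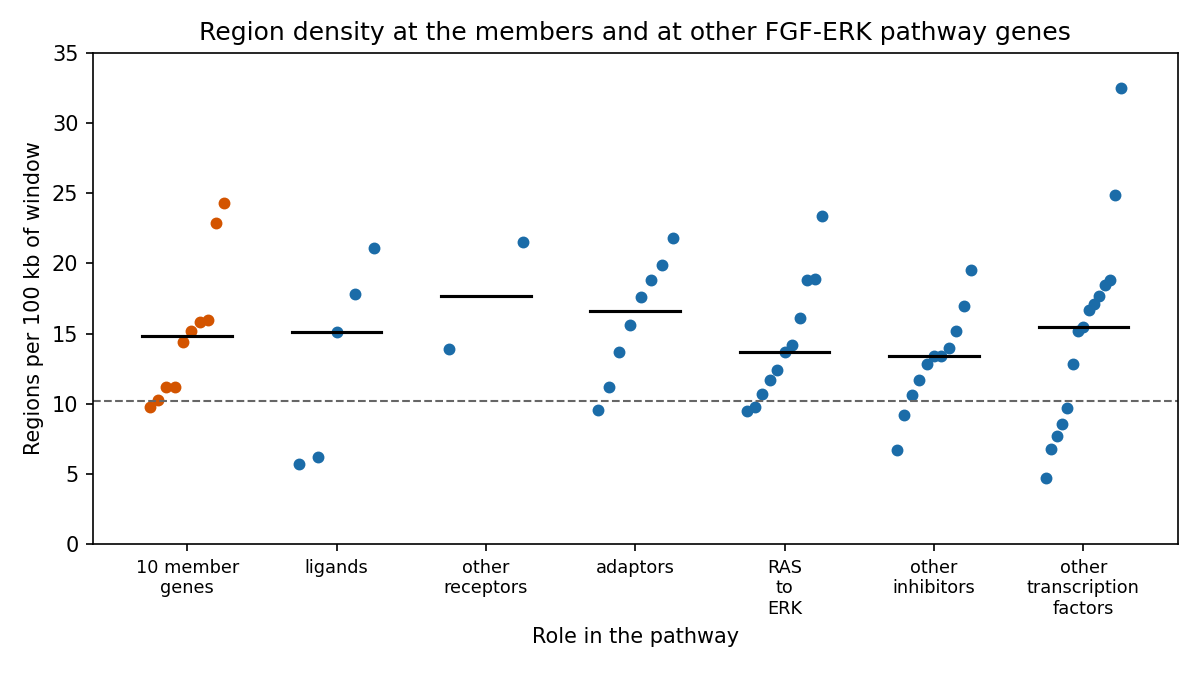
Regions per 100 kb of window (y axis) at the 10 members (orange points) and at 52 other pathway genes by role (blue points), with the median of each set as a black line and that of all protein-coding genes as a dashed line at 10.2. Each point is 1 gene, and Spry2 and Spry4 are the 2 highest orange points.

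At the limit of 50 kb from the gene, the regions just inside lay 35.85 to 49.55 kb away and those just outside 50.22 to 55.84 kb away. The closest to the limit were at Egr1, a 237 bp region at 49.55 kb inside and a 581 bp region at 50.22 kb outside.

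The most isolated region of each window was the one with the widest gap to its nearest neighbour. That gap was largest at Dusp4 (24.57 kb, the 290 bp region in an intron of Tnks) and at Fgfr2 (22.32 kb, a 192 bp region 35.94 kb upstream). In the other 8 windows it was between 7.41 kb at Egr1 and 12.03 kb at Etv4, so the densest windows, Spry2 with 8.10 kb and Spry4 with 8.38 kb, did not have the smallest value.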

How the data were processed

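ATAC-seq was done on 12 libraries of ZHBTc4 and 2TS22C mouse ES cells, 2 per group. Per the methods and the submitters' processing notes, the authors aligned reads to mm10 with STAR 2.6.1c, removed duplicates with Picard, and used MACS2 2.1.1.20160309 for peak calling. Only the autosomes and the sex chromosomes entered. Peaks from all experiments in both lines were then combined by BEDTools. Whether these included the published ZHBTc4 libraries from serum with LIF is not known. The paper also removed peaks over 5 kb and peaks that overlapped input or blacklisted ones. The list used here still held 16 regions wider than 5 kb, so the width filter had not been applied to it. Whether the other removals had been applied is not known. The deposited file has a pair of positions per merged region, in bp, with no count, score or sample, and 0 of its columns are tied to one sample. Merging joins neighbouring peaks, so widths and numbers depend on it.

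Regions were counted in the body and 50 kb to either side of each gene (GENCODE M21), with coordinates counted from 1, and set beside the same counts over 21938 protein-coding genes with their gene records as annotated. Distal regions had a center over 1 kb from every annotated TSS. A transcript of Fgfr2 at least 10 times as long as the next was left out. Elements were matched exactly on both strands in the central 200 bp, or with at most 2 mismatches for the OCT4::SOX2 composite. Shares have 95% Wilson intervals, and a share of 0 also has the limit that 3 counts would give. Both cover counting error only. No test was run, since the list has no replicates. Alternatives changed the window, the width limit of 200 bp, the joining of regions, the TSS set and the search width. Sequences came from RefSeq (GRCm38.p6). The members and gene lists were chosen with earlier results of these data known. Named regions were, per gene, those at the 5′ end, the widest, the widest distal, the most isolated and those with a composite match, and in the pathway list the genes with no TSS region and the 3 with the most and the fewest regions. Other named regions, with sequence matches, high CpG content or a place in a cluster, were chosen after their values were seen. Functions were tested on simulated data. Python 3.11.15, NumPy 2.4.6, pandas 2.3.3, SciPy 1.17.1 and matplotlib 3.10.9 were used.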

Additional observations from a re-analysis of the deposited data

How the results depend on the processing

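The number of regions in the member windows was 123 with 20 kb to either side, 319 with 100 kb and, in an alternative chosen after seeing the data, 449 with Fgfr2 as annotated, against 197. The distal share was 91.4% with TSSs of protein-coding transcripts only, against 86.8%. The share of member regions with any element was 58.9% in the central 400 bp (56.7% of all regions) and 62.4% over the whole region (56.5% of all regions), against 39.1%. With at most 3 mismatches 5 member regions had an OCT4::SOX2 composite match (3.40% of all regions), against 0. With Fgfr2 as annotated, 8 and not 9 of the 10 members had a denser window than the median gene. This and 16 others, 17 of 24 alternatives in all, stayed within 1.5 times the reported count or inside its interval, among them the median of 11.5 regions per 100 kb from regions at least 200 bp wide (8.46 over all genes). Of 26 alternatives for single elements, 9 moved outside the interval, all upwards in wider sequence, for AP-1, KLF, TCF/LEF and AP-2 at both widths and for STAT over the whole region. The shares of all regions rose as well. In the central 400 bp the shares at the members and in all regions were 16.2% and 16.0% for AP-2, 7.11% and 6.63% for TCF/LEF, 2.54% and 3.38% for the octamer, 11.7% and 12.8% for AP-1 and 0.508% and 0.264% for EGR. Over the whole region they were 17.8% and 18.8% for AP-2, 9.14% and 7.57% for TCF/LEF, 5.58% and 3.72% for the octamer, 14.2% and 14% for AP-1, 0.508% and 0.459% for EGR, and 4.57% and 1.97% for STAT. The side on which the members lay thus changed with the width for the octamer, AP-1, EGR, TCF/LEF and AP-2. No paired analysis was possible because replicates are merged in the deposited list. For the same reason no replicate was left out, and a stricter peak threshold was not run because the list has no score. The depth of each library is unknown.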
